A study of Mus musculus with 5 samples.

Results

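The genes described are 9 immediate early genes of skeletal muscle, namely the 3 NR4A orphan nuclear receptors (Nr4a1, Nr4a2 and Nr4a3), 4 subunits of the AP-1 transcription factor (Fos, Fosb, Jun and Junb), the zinc finger factor Egr1 and the bZIP factor Atf3. They were taken by gene name from the 17015 genes of the deposited table, and all 9 names were found, each once. The measurements come from RNA-seq of the tibialis anterior (TA), a fast-twitch muscle of the lower leg, of sedentary 8-week-old male mice. There were 3 libraries from WT control mice (labelled Ctrl), which were littermates without Cre, and 2 libraries labelled skmNrip1-/- (Nrip1KO in the sample labels). In skmNrip1-/- mice, floxed Nrip1 alleles on a C57BL/6J background are deleted by a Cre recombinase under the myogenin promoter. Nrip1 encodes RIP140, a corepressor of nuclear receptors. Myogenin-Cre acts in differentiating and mature muscle fibers, and the endothelium, blood, fibroblasts and nerve within the muscle keep the gene. Muscles were collected around midday under pentobarbital anesthesia, and time of day, anesthesia and handling were shared by the groups as far as the methods state.

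Immediate early genes are transcribed within minutes of a stimulus without new protein synthesis, and their mRNAs are short-lived. In muscle, contraction, catecholamines acting through cAMP and CREB, calcium, MAP kinases acting through SRF and its partner factors, and stretch are known inducers. NR4A receptors bind DNA without a known physiological ligand, so their activity is thought to follow their abundance, and in muscle they are known regulators of glucose and fat metabolism. FOS and JUN proteins pair through leucine zippers to form AP-1, EGR1 binds GC-rich sites, and ATF3 is induced by stress and pairs with other bZIP proteins.

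The promoter sequences of the NR4A genes, of Fos and of Jun are shown because the NR4A genes and Fos share a motif that Jun does not, the cAMP response element (CRE) core. They were read from RefSeq on GRCm38.p6, which held a promoter for 8 of the 9 genes (all but Egr1). Each runs 5′ to 3′ on the strand of its gene and ends at the base before the RefSeq start site, except that of Nr4a3, which covers the 98 bases that precede its first annotated exon. That of Nr4a1 lies inside the annotated span of the gene, upstream of an internal start used by the RefSeq entry. Capitals mark the core TGACG, or CGTCA where it lies on the opposite strand.
Nr4a1, chr15:101266596-101266845, plus strand: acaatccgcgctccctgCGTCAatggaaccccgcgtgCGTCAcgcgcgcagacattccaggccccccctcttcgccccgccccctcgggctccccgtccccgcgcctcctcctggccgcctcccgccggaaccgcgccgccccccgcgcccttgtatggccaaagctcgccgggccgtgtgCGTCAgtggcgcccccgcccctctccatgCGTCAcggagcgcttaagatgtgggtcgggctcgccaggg
Nr4a2, chr2:57124004-57124253, minus strand: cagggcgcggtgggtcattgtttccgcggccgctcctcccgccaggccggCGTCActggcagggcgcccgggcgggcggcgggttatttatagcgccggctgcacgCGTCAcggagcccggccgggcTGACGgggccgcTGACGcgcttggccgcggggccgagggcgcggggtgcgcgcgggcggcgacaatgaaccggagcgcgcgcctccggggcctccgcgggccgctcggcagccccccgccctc
Nr4a3, chr4:48045055-48045152, plus strand: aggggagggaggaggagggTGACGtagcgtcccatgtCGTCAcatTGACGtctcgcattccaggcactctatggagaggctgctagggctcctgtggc
Fos, chr12:85473640-85473889, plus strand: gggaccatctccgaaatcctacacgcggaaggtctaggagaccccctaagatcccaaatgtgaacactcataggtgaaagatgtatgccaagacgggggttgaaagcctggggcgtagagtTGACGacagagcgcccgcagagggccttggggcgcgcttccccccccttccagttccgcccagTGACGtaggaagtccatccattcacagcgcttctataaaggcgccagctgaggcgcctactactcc
Jun, chr4:95052223-95052472, minus strand: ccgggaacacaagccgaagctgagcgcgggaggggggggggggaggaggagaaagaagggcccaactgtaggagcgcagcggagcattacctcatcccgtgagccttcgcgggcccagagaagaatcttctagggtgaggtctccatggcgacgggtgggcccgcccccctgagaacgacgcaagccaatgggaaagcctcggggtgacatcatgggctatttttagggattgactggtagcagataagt

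The CRE core TGACG was present, on either strand, in the 250 bases before the start site in 7 of the 8 promoters, against 17.8% of 32851 RefSeq promoters. Nr4a1, Nr4a2 and Nr4a3 held 4 cores each (3 of those of Nr4a3 lie in the sequence shown), Fos held 2, and Fosb, Junb and Atf3 held 1. In Fos, the core nearest the start site lay at positions -66 to -62. The Jun promoter held none. Its sequence does hold tgacatca, which differs from the full CRE TGACGTCA by 1 letter and was not counted. The full CRE TGACGTCA, which contains the core, was in none of the 8 (1.55% of all promoters), and neither were the AP-1 site TGANTCA (6.75%), the NR4A monomer site AAAGGTCA (1.34%) or the CArG box bound by SRF (1.47%). The EGR site GCGNGGGCG was found in the promoters of Nr4a1, Nr4a2 and Fosb (4.7% of all promoters) and overlapped no core there. The letters TATAAA of the TATA box were found in 12.4% of all promoters. In Fos they lay at -33 to -28 on the strand of the gene. In Nr4a2 they lay at -164 to -159 on the opposite strand. These are matches of letters within a short window, and motifs farther upstream were not searched.

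Expression was compared as FPKM (fragments per kilobase, scaled per library), which allows levels of different genes to be set side by side. The FPKM summed to between 969144 and 1.29e+06 per library. Rescaling by the median ratio over genes left the calls defined below at 45 higher and 10 lower. The deposited values thus already carried a scale of this kind. Differences between the groups were estimated with limma on log2(FPKM + 0.1), a scale that understates changes of genes with low FPKM. Genes averaging 0.5 FPKM or more (12148 of the table) were tested, and a call required both a Benjamini-Hochberg adjusted p of at most 0.05 and a fold change of 1.2 or more. With 2 libraries against 3, the smallest one-sided p of an exact permutation test of a single gene is 0.1. The absolute depth is not in the table. Steps between low FPKM values gave the number of fragments behind a given FPKM, relative to WT control replicate 1. It was 1.101 for replicate 2 and 1.005 for replicate 3, while skmNrip1-/- replicates 1 and 2 were at 0.817 and 0.971. These numbers follow the scaling of the FPKM and do not give the total fragments sequenced. Markers of muscle fibers lay between 136 and 26288 FPKM in every library, while the 3 neutrophil markers found in the table did not exceed 0.520 FPKM in any library. The targeted gene, Nrip1, was at 4.64, 7.69 and 6.55 FPKM in the WT control libraries, against 25.3 and 22.5 FPKM in those labelled skmNrip1-/- (log2 fold change 1.94, SE 0.21, adjusted p = 0.0261, limma). This runs against the label of a knockout, and the single value per gene does not separate exon 4, which Cre removes, from the other exons. Each direction below therefore rests on the labels of the libraries.

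None of the 9 genes was called different between the groups, with 2 of them measured below the range that was tested. The levels spanned from 69.8 FPKM for Nr4a1 to 0.0703 FPKM for Fosb, and 7 of the 9 genes passed the minimum and were tested. Over all genes tested, limma called 0.453%, of which 45 (0.370%) were higher and 10 (0.0823%) lower in the libraries labelled skmNrip1-/-. Any 7 genes would seldom hold a call at that share. Rescaled to TPM, with the median over all genes then at -0.29 on the log2 scale, the calls were 29 higher and 59 lower, and none of the 7 genes tested was among them. Before adjustment, 2 of the 7 (Fos and Egr1) had a limma p of 0.05 or less, both toward higher values in the libraries labelled skmNrip1-/-, against 11.9% of all genes tested (6.57% toward higher and 5.33% toward lower values). As TPM, 161 of all genes tested had such a p toward higher and 3530 toward lower values, Fos and Egr1 did not, and Jun alone of the 7 did, toward lower values. For both Fos and Egr1, the FPKM of each library labelled skmNrip1-/- lay above every WT control library, as for 15.8% of all genes tested. Groups without overlap made up 30.2% of all genes tested, with the other 14.4% toward lower values. In bulk muscle, a change in the number of cells of a type and a change in RNA per cell cannot be told apart.

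**Figure D1:**
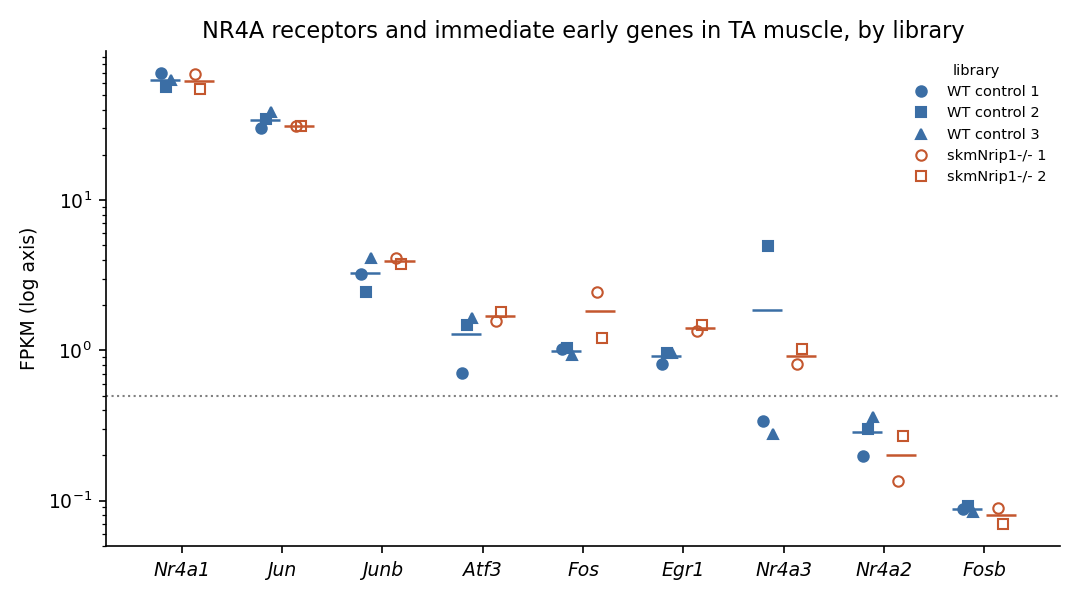
FPKM (log axis) of the 9 genes in each of the 5 libraries, ordered by their median. Filled blue symbols are WT control, open orange symbols are the libraries labelled skmNrip1-/-, short lines are group means, and the dotted line marks the minimum mean of 0.5 FPKM. Nr4a1 and Jun lie above all other genes in every library, WT control replicate 2 is far above the other libraries for Nr4a3, and both open symbols lie above all filled symbols only for Fos and Egr1.

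Ordered by their median over the 5 libraries, the levels ran Nr4a1, Jun, Junb, Atf3, Fos, Egr1, Nr4a3, Nr4a2 and Fosb. Nr4a1, Jun and Junb were each separated from the next gene in the order in all 5 libraries, although Nr4a3 in WT control replicate 2 (4.92 FPKM) was above every Junb value. The lowest Nr4a1 value (55.2 FPKM) was above the highest Jun value (38.3 FPKM), and the lowest Jun value (30.0 FPKM) was above the highest Junb value (4.12 FPKM). From Atf3 down to Nr4a2, the ranges of neighbors overlapped, and their order is not separated by these libraries. Fosb was the lowest of the 9 in every library, with its highest value (0.0915 FPKM) below the lowest Nr4a2 value (0.135 FPKM). Among all 17015 genes, the mean of Nr4a1 stood at percentile 94.0 and that of Jun at percentile 89.1, while Nr4a2 and Fosb stood at percentiles 20.9 and 9.92.

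Nr4a1 was the abundant NR4A receptor of this muscle and did not differ between the groups beyond the spread of the libraries. Nr4a1 (NUR77; ENSMUSG00000023034, chr15:101254269-101274795, plus strand, mm10) was at 69.8, 56.5 and 63.4 FPKM in WT control replicates 1 to 3. In the libraries labelled skmNrip1-/- it was at 68.6 and 55.2 FPKM. The values of the groups interleaved, with the highest in WT control replicate 1 and the lowest in skmNrip1-/- replicate 2. The means were 63.2 ± 6.66 FPKM (SD, n = 3) and 61.9 ± 9.46 FPKM (SD, n = 2). The log2 fold change was -0.03 (SE 0.14, 95% interval -0.38 to 0.31, adjusted p = 0.959, limma), an interval of 0.771 to 1.24 as a fold. At this level, a library holds an estimated 5988 to 7787 Nr4a1 fragments, with a counting error of about 1.29% at the lowest. Nr4a1 made up 99.2%, 91.5% and 99.0% of the summed FPKM of the 3 receptors in WT control replicates 1 to 3, and 98.6% and 97.7% in the libraries labelled skmNrip1-/-.

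Nr4a2 (NURR1; ENSMUSG00000026826, chr2:57106830-57124003, minus strand), known best for its role in dopamine neurons, was near the lower end of what could be measured. It was at 0.198, 0.302 and 0.359 FPKM in the WT control libraries, against 0.135 and 0.268 FPKM in those labelled skmNrip1-/-. The groups overlapped, and the mean was under the minimum of 0.5 FPKM. In the fit with no minimum, the log2 fold change was -0.37 (SE 0.31, 95% interval -1.12 to 0.38, adjusted p = 0.765, limma). These values correspond to an estimated 18 to 58 fragments per library, and counting error alone is about 23.8% at the lowest of them.

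Nr4a3 (NOR-1; ENSMUSG00000028341, chr4:48045153-48086447, plus strand), a receptor induced strongly by exercise and by beta-adrenergic stimulation, varied more between libraries than any other of the 9 genes. It was at 0.337, 4.92 and 0.278 FPKM in WT control replicates 1 to 3 and at 0.806 and 1.03 FPKM in skmNrip1-/- replicates 1 and 2. WT control replicate 2 was thus 4.80 times the next library and 16 times the mean of the other 2 WT control libraries, and it had the highest Nr4a3 value of the 5 while the other 2 WT control libraries had the lowest. The value rests on an estimated 1419 fragments, against 73 to 261 in the other libraries. On the log2 scale the gap to the next library was 2.16, and 19 of the 12148 genes tested (0.156%) had a gap from the highest to the next library at least as large. The log2 fold change over all 5 libraries was 0.10 (SE 1.07, 95% interval -2.47 to 2.68, adjusted p = 0.985, limma). Without WT control replicate 2 it was 1.31 (SE 0.29, adjusted p = 0.159, limma), and without WT control replicate 1 or 3 it was -0.45 or -0.55. The direction of Nr4a3 between the groups thus changed with the WT control libraries included.

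The other genes did not share the high value of WT control replicate 2. In that library Nr4a1 (56.5 FPKM) and Junb (2.46 FPKM) were the lowest of the WT control libraries. Its Fos and Egr1 values lay beside those of another WT control library. Each library had the highest value for 1 or 2 of the 9 genes, and each had the lowest for 1 to 3, so no library led or trailed throughout.

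**Figure D2:**
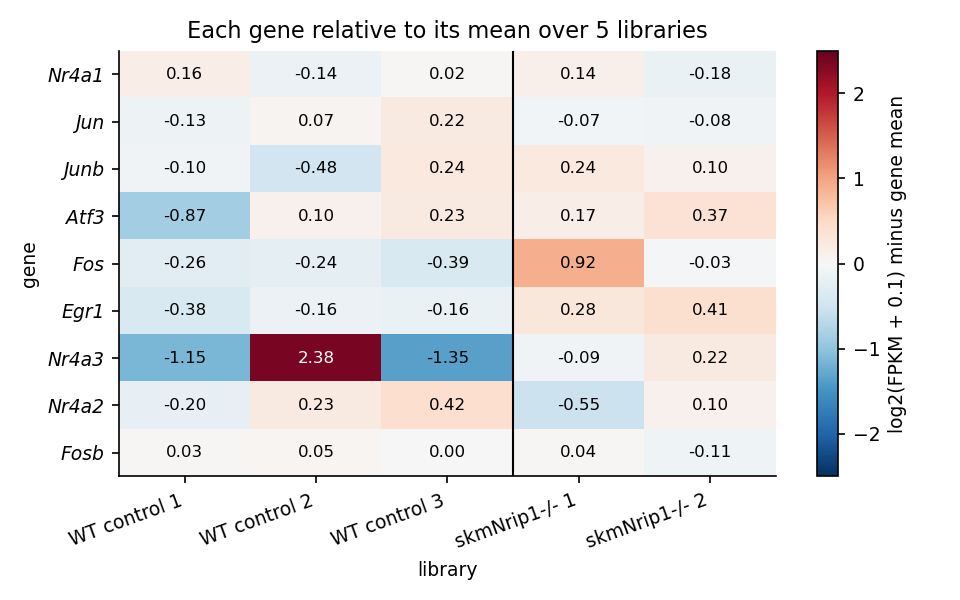
Each cell gives log2(FPKM + 0.1) of a gene in a library minus the mean of that gene over the 5 libraries, with red above and blue below the mean, and the vertical line separates WT control from the libraries labelled skmNrip1-/-. The largest departure is Nr4a3 in WT control replicate 2 (2.38), followed by Nr4a3 in the other 2 WT control libraries (-1.35 and -1.15), and Fos departs most in skmNrip1-/- replicate 1 (0.92).

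Jun was the abundant AP-1 subunit and did not differ between the groups beyond the spread of the libraries. Jun (ENSMUSG00000052684, chr4:95049034-95052222, minus strand), which can pair with itself or with FOS proteins, was at 30.0, 34.5 and 38.3 FPKM in the WT control libraries, against 31.3 and 31.0 FPKM in those labelled skmNrip1-/-. Both of the latter fell within the WT control range. Its log2 fold change was -0.13 (SE 0.13, 95% interval -0.43 to 0.18, adjusted p = 0.769, limma). Jun made up between 82.5% and 90.6% of the summed FPKM of the 4 AP-1 subunits in the 5 libraries. Of its 3189 exon bases, 232 are shared with Junos, an antisense gene not analysed here, and the library kit does not mark strand.

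Junb (ENSMUSG00000052837, chr8:84974484-84978718, minus strand), an AP-1 subunit known to maintain muscle mass, was at 3.24, 2.46 and 4.10 FPKM in the WT control libraries. It was at 4.12 and 3.73 FPKM in the libraries labelled skmNrip1-/-, and the groups overlapped. The difference on the log2 scale was 0.29 (SE 0.22, 95% interval -0.24 to 0.81, adjusted p = 0.683, limma). Of the 2301 exon bases of Junb, 173 (7.52%) overlap exons of Prdx2, a gene on the opposite strand at 75.3 to 90.4 FPKM, so part of the Junb value is uncertain. Prdx2 was highest in skmNrip1-/- replicate 1 and lowest in WT control replicate 2, as was Junb, and its part in the Junb values was not tested.

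Fos was higher in both libraries labelled skmNrip1-/- than in any WT control library, but most of the difference came from a single library and it did not pass the adjusted threshold. Fos (ENSMUSG00000021250, chr12:85473890-85477273, plus strand), the canonical immediate early gene, was at 1.03, 1.04 and 0.927 FPKM in WT control replicates 1 to 3. It was at 2.44 FPKM in skmNrip1-/- replicate 1 and at 1.22 FPKM in replicate 2. The WT control libraries lay close together, replicate 2 labelled skmNrip1-/- lay just above them, and replicate 1 stood apart. The means were 0.997 ± 0.061 FPKM (SD, n = 3) and 1.83 ± 0.87 FPKM (SD, n = 2). The log2 fold change was 0.74 (SE 0.30, 95% interval 0.03 to 1.45, adjusted p = 0.397, limma). It was 0.26 without skmNrip1-/- replicate 1 and 1.21 without replicate 2. The values stand for an estimated 84 to 107 fragments in 4 of the libraries and 180 in skmNrip1-/- replicate 1, where a given FPKM stood for the fewest fragments. The ratio of Jun to Fos FPKM was 29.2, 33.2 and 41.3 in the WT control libraries and 12.8 and 25.5 in those labelled skmNrip1-/-.

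Fosb (ENSMUSG00000003545, chr7:19302696-19310051, minus strand), whose shorter protein form is known to accumulate with repeated stimulation, was barely detected. It was at 0.0876, 0.0915 and 0.0841 FPKM in the WT control libraries, against 0.0891 and 0.0703 FPKM in those labelled skmNrip1-/-, an estimated 12 to 17 fragments per library. The groups overlapped, and the log2 fold change in the fit with no minimum was -0.07 (SE 0.19, 95% interval -0.53 to 0.40, adjusted p = 0.942, limma). At this level the pseudocount of 0.1 is as large as the values, and a change could not be resolved at this depth.

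Egr1 had the smallest p of the 9 genes, and its libraries did not overlap, but it too was not called. Egr1 (ENSMUSG00000038418), a factor induced through SRF and MAP kinases, was at 0.812, 0.962 and 0.961 FPKM in the WT control libraries, against 1.34 and 1.47 FPKM in those labelled skmNrip1-/-. Both libraries labelled skmNrip1-/- were above all 3 WT control libraries by more than the spread within either group. The means were 0.912 ± 0.086 FPKM (SD, n = 3) and 1.40 ± 0.09 FPKM (SD, n = 2). On the log2 scale the difference was 0.57 (SE 0.19, 95% interval 0.11 to 1.04, adjusted p = 0.325, limma), which is 1.49-fold with an interval of 1.08 to 2.05. Leaving out any library left it between 0.50 and 0.64, and it was 0.33 with a pseudocount of 1 and 0.29 as TPM (0.58 relative to the median of all genes).

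Atf3 (ENSMUSG00000026628, chr1:191170296-191218039, minus strand) was at 0.706, 1.48 and 1.64 FPKM in WT control replicates 1 to 3. It was at 1.57 and 1.81 FPKM in the libraries labelled skmNrip1-/-. The groups overlapped, and WT control replicate 1 was the only library below 1 FPKM. The log2 fold change was 0.45 (SE 0.35, 95% interval -0.38 to 1.28, adjusted p = 0.687, limma), and without WT control replicate 1 it was 0.10.

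**Figure D3:**
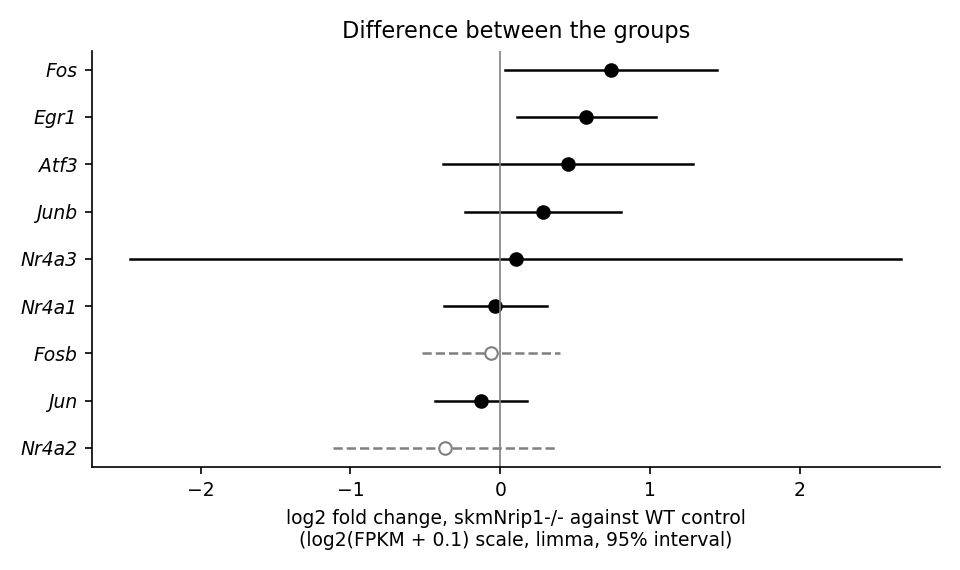
Log2 fold change of each gene (libraries labelled skmNrip1-/- against WT control, log2(FPKM + 0.1) scale) with its 95% interval from limma. Filled points with solid lines are genes tested, and open points with dashed lines are genes under the minimum, from the fit with no minimum. The intervals of Fos (0.03 to 1.45) and Egr1 (0.11 to 1.04) lie above 0 before adjustment, and that of Nr4a3 is the widest.

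Among the 7 genes tested, 5 had a log2 fold change above 0 and 2 below, with a median of 0.29, while over all genes tested 49.9% were above 0 and the median was -0.00054. After rescaling to TPM, 3 of the 7 (Fos, Egr1 and Atf3) were above 0, and 5 were above the shifted median of all genes. Red blood cell markers were also higher in the libraries labelled skmNrip1-/-, where Fos and Egr1 were high. The 4 hemoglobin genes had log2 fold changes of 0.49 to 0.55 (lowest adjusted p = 0.329, limma), with summed levels of 510 to 762 FPKM in WT control and 825 to 993 FPKM in the libraries labelled skmNrip1-/-, and none was at 0. The 5 endothelial markers summed to 73.1 to 83.3 FPKM and 68.7 to 77.2 FPKM, and the 5 macrophage markers to 4.59 to 10.5 FPKM and 6.79 to 7.70 FPKM. Of the 7 muscle fiber markers, 6 were below 0 and 1 above (median log2 fold change -0.21, lowest adjusted p = 0.517, limma). Their sums were 65442 to 87915 FPKM in WT control and 60181 to 62365 FPKM in the libraries labelled skmNrip1-/-. The part of blood or other cells in the Fos and Egr1 values was not tested.

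No other immediate early gene measured was called, beside 0.453% of all genes tested. With 55 genes tested, no call is the usual outcome at that share. In 3 lists of 55 tested genes (other AP-1 and MAF factors, other immediate early transcription factors, and immediate early effectors), limma called none, and 19 were above 0 and 36 below, with a median log2 fold change of -0.08. Before adjustment, 5 of the 55 had a limma p of 0.05 or less toward higher and 8 toward lower values, beside 6.57% and 5.33% of all genes tested. The groups did not overlap for 6 genes toward higher and 17 toward lower values, beside 15.8% and 14.4% of all genes tested.

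Among the 8 other AP-1 and MAF genes tested, the median log2 fold change was -0.08. Jund, the JUN protein that is present without a stimulus and tends to restrain growth, had the lowest. It was at 9.12, 9.66 and 11.2 FPKM in the WT control libraries, against 7.15 and 6.63 FPKM in those labelled skmNrip1-/- (log2 fold change -0.53, SE 0.13, adjusted p = 0.208, limma). Jund was thus above Junb but below Jun in FPKM in every library. Jund was 1 of 2 genes of the 8 whose groups did not overlap toward lower values, beside 14.4% of all genes tested. Toward higher values, 1 of the 8 was without overlap, beside 15.8%.

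Among the 18 other immediate early transcription factors tested, 13 were below 0 and the median log2 fold change was -0.17. Before adjustment, 4 of the 18 had a limma p of 0.05 or less, all toward lower values, beside 5.33% of all genes tested. The groups did not overlap for 8 of the 18, all toward lower values, beside 14.4% of all genes tested. Cebpb, a bZIP factor of the acute response, had the lowest. It was at 37.8, 33.3 and 47.1 FPKM in the WT control libraries, against 24.1 and 20.3 FPKM in those labelled skmNrip1-/- (log2 fold change -0.81, SE 0.17, adjusted p = 0.144, limma). Klf10, a zinc finger factor induced by TGF-beta and fasting, had the highest, at 1.87, 7.40 and 6.46 FPKM against 5.09 and 8.55 FPKM (0.55, SE 0.58, adjusted p = 0.788, limma), and its groups overlapped. WT control replicate 1 had the lowest value for Klf10, as it did for Atf3.

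Among the 29 effectors tested, 12 were above 0 and 17 below, with a median log2 fold change of -0.03. Gadd45b, a stress-induced regulator of p38 signaling, had the highest, at 29.1, 28.4 and 39.0 FPKM against 51.1 and 52.7 FPKM (0.70, SE 0.16, adjusted p = 0.174, limma). Hbegf, a growth factor of the EGF family, had the lowest, at 8.39, 5.90 and 8.00 FPKM against 4.31 and 5.42 FPKM (-0.59, SE 0.19, adjusted p = 0.302, limma). Both were without overlap between the groups. Of the 29, 5 had no overlap toward higher and 7 toward lower values, beside 15.8% and 14.4% of all genes tested.

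**Figure D4:**
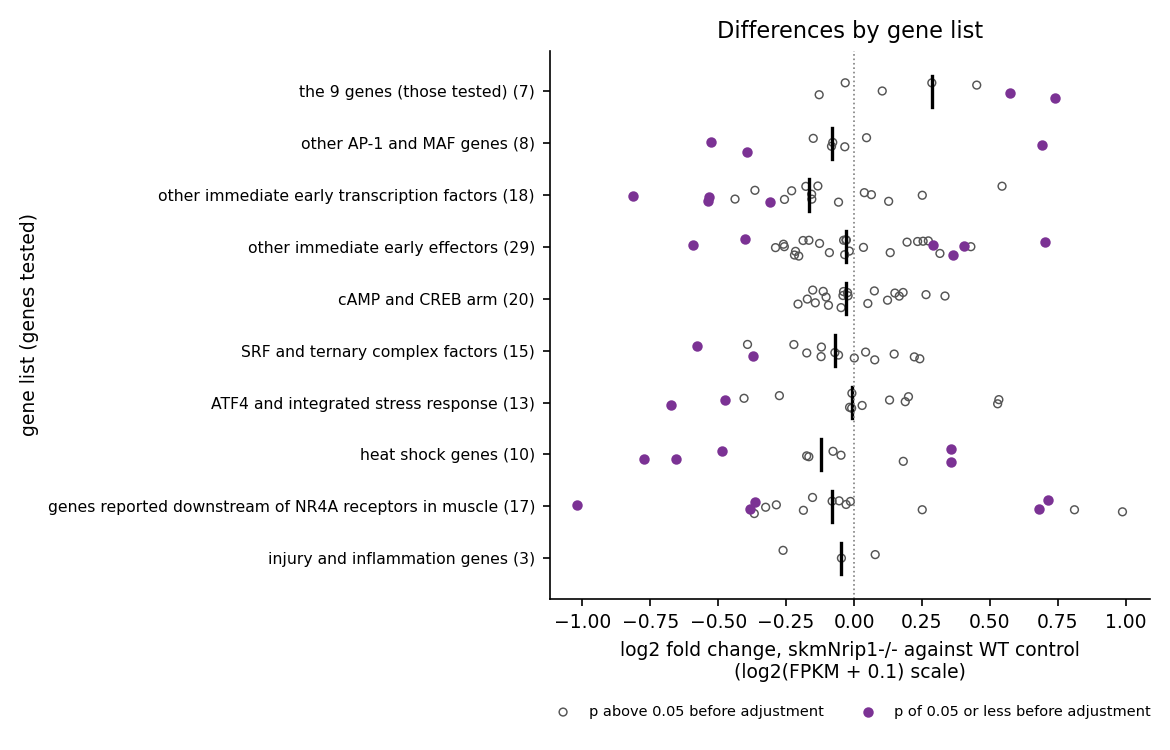
Log2 fold change (libraries labelled skmNrip1-/- against WT control, log2(FPKM + 0.1) scale) of each tested gene, by list, with the number tested in brackets. Filled purple points had a limma p of 0.05 or less before adjustment, thick bars are list medians and the dotted line is the median of all genes tested. The 7 tested genes of the top line have a median of 0.29, and the medians of the other lists lie between -0.17 and -0.01.

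The upstream arms of the immediate early response held no called gene, beside 0.453% of all genes tested. At that share, lists of 20 and 15 genes would seldom hold a call. In the cAMP and CREB arm, 20 genes (receptors, kinase subunits, CREB and its coactivators, phosphodiesterases) were tested, none had a limma p of 0.05 or less before adjustment, and the log2 fold changes ran from -0.21 for Pde7a to 0.34 for Pde4d, both cAMP phosphodiesterases. In the list of SRF, the ternary complex factors and the MAP kinases, 15 genes were tested and the median was -0.07. Before adjustment, 2 of the 15 had a limma p of 0.05 or less, both toward lower values, beside 5.33% of all genes tested. The groups did not overlap for 2 of the 15, both toward lower values, beside 14.4% of all genes tested. Mrtfa, the actin-regulated coactivator of SRF, had the lowest value (4.49, 3.91 and 5.23 FPKM against 2.82 and 3.17 FPKM, log2 fold change -0.58, SE 0.16, adjusted p = 0.249, limma).

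Stress pathways that induce Atf3 and Fos gave no call either, beside 0.453% of all genes tested, a share at which lists of 13 and 10 genes would seldom hold a call. Of 13 genes of ATF4 and the integrated stress response, 6 were above 0 and 7 below, with a median of -0.01. They ran from Chac1, a glutathione-degrading enzyme (-0.67, SE 0.25, adjusted p = 0.367, limma), to Phgdh, an enzyme of serine synthesis (0.53, SE 0.36, adjusted p = 0.633, limma). Of 10 heat shock genes, 3 were above 0 and 7 below. Before adjustment, 2 of them had a limma p of 0.05 or less toward higher and 3 toward lower values, beside 6.57% and 5.33% of all genes tested. The groups did not overlap for 2 toward higher and 4 toward lower values, beside 15.8% and 14.4% of all genes tested. Hspa1b, an inducible HSP70 gene with a near-identical copy in Hspa1a, had the lowest, at 2.49, 2.33 and 2.501 FPKM against 1.32 and 1.46 FPKM (-0.77, SE 0.15, adjusted p = 0.124, limma). Bag3, a cochaperone of the muscle Z-disc, had the highest (0.36, SE 0.11, adjusted p = 0.281, limma). Of 7 genes of injury and inflammation found in the table, 3 passed the minimum, and none of the 7 exceeded 2.86 FPKM in any library. Timp1 had the lowest log2 fold change (-0.26, SE 0.78, adjusted p = 0.931, limma), and its groups overlapped. It was at 1.26, 1.26 and 0.975 FPKM in the WT control libraries. In skmNrip1-/- replicates 1 and 2 it was at 0.272 and 2.86 FPKM, the lowest and the highest of the 5 libraries.

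Metabolic genes that have been placed downstream of NR4A receptors in muscle held no called gene, beside 0.453% of all genes tested. A list of 17 genes would seldom hold a call at that share. Of 17 tested, 5 were above 0 and 12 below, with a median of -0.08. Before adjustment, 2 of the 17 had a limma p of 0.05 or less toward higher and 3 toward lower values, beside the same 6.57% and 5.33%. The groups did not overlap for 5 of the 17 toward higher and 6 toward lower values, beside 15.8% and 14.4% of all genes tested. Prkag3, the AMPK subunit of fast glycolytic fibers, had the lowest, at 52.4, 30.6 and 35.5 FPKM in the WT control libraries, against 16.4 and 21.8 FPKM in those labelled skmNrip1-/- (-1.02, SE 0.24, adjusted p = 0.197, limma). Pdk4, the kinase that restrains pyruvate oxidation, had the highest, at 78.2, 255 and 185 FPKM against 272 and 345 FPKM (0.99, SE 0.46, adjusted p = 0.474, limma). Pdk4 was lowest in WT control replicate 1, the library in which Klf10 and Atf3 were also lowest.

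The genes whose pattern over the 5 libraries was nearest to the mean pattern of the 7 tested genes were Ppfibp2, Gm14416, B230307C23Rik, Nxt2 and Gabpb2. The root mean square difference of their centered log2 values from that mean was 0.018 for Ppfibp2 and 0.042 to 0.048 for the others. The mean pattern is low in WT control replicates 1 and 3 (-0.39 and -0.17). It is higher in WT control replicate 2 (0.22) and in the libraries labelled skmNrip1-/- (0.23 and 0.12). Nr4a3 has the largest part in the WT control values (-1.15, 2.38 and -1.35 in replicates 1 to 3). The median of the 7 genes was -0.14 in WT control replicate 2 and 0.02 in replicate 3, opposite in sign to the mean. It was -0.26 in WT control replicate 1, and 0.17 and 0.10 in the libraries labelled skmNrip1-/-. The nearest genes thus follow a mean shaped by Nr4a3 and not a pattern shared by the 7 genes.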

How the data were processed

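RNA from TA muscle of 5 mice was extracted by the authors with a spin-column kit and DNase, and libraries were made with a NEBNext Ultra RNA kit, which does not mark strand. The authors quantified paired-end HiSeq reads with Salmon 1.10.2 on mm10, summarized them to genes with tximport and tested them with DESeq2 1.44.0. They deposited FPKM per gene and library. How the FPKM were computed and the annotation release are not given in the sources used here. Columns of the authors' own log2 fold changes and p-values were not used. The study's legend names 3 mice in each group, whereas the table holds 2 libraries labelled skmNrip1-/-.

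FPKM are not counts, so limma 3.58.1 in R 4.3.3 (lmFit, eBayes with trend) was run on log2(FPKM + 0.1), with both groups in 1 fit, no covariates, 2-sided p-values and Benjamini-Hochberg adjustment over the 12148 genes averaging 0.5 FPKM or more. Other tools were Python 3.11.15, pandas 2.3.3, numpy 2.4.6 and matplotlib 3.10.9. Fragments per gene were estimated from the value of 1 fragment in each library (1146 genes with 1 transcript of 2000 to 8000 bases, assuming 200-base fragments) and the longest coding transcript. Between 87.3% and 95.0% of low values were within 0.1 of a whole number, up to 5 fragments. Positions and overlaps come from GENCODE M21 (GRCm38). The labels number the libraries as replicates without naming animals, so p-values measure the spread between these libraries.

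The genes and lists were chosen with earlier results of these data known. Named beside the 9 genes are Nrip1, any called gene and the highest and lowest log2 fold change of each list, and the 5 genes nearest in pattern. Of the genes so chosen, a few are left out here. Alternatives were the pseudocount, the minimum, the scaling, the eBayes settings, the replicate block, the thresholds and leaving out each library.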

Additional observations from a re-analysis of the deposited data

How the results depend on the processing

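No alternative called any of the 7 genes tested, and Nr4a2 and Fosb were tested with no minimum only and not called there. Fos, Egr1 and Atf3 stayed above 0 and Jun stayed below 0 under all 14 alternatives. Where both libraries labelled skmNrip1-/- were kept, adjusted p ran from 0.159 to 0.950 (limma). The 14 include the fits without a library labelled skmNrip1-/-, which leave 1 library in that group, assumed to vary like WT control. Nr4a1 ranged from -0.19 to 0.12 when each library was left out, turning positive without WT control replicate 1 (0.04) and without skmNrip1-/- replicate 2 (0.12). Nr4a3 was -0.18 with a pseudocount of 1, -0.17 as TPM and -0.55 with the replicate block, and ranged from -0.55 to 1.31 when each library was left out (-0.05 without skmNrip1-/- replicate 2). Rescaling to TPM moved the median of all genes by -0.29 on the log2 scale. Junb was then -0.0052, Nr4a1 -0.33 and Jun -0.43, or 0.28, -0.04 and -0.14 relative to that median, and Nr4a3 was 0.12 relative to it. Below the minimum, the untested difference of Nr4a2 ranged from -0.70 to -0.047 and that of Fosb from -0.14 to 0.011 when each library was left out, and Fosb was -0.011 with a pseudocount of 1, -0.13 with 0.01 and -0.19 as TPM.

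Over all genes, 45 were called higher and 10 lower. The counts were 29 and 59 as TPM, 22 and 3 without the trend, 18 and 4 with the replicate block, 81 and 23 at an adjusted p of 0.1, and from 6 to 51 higher and from 2 to 15 lower when each library was left out. The lowest counts came without skmNrip1-/- replicate 2 (6 higher), without skmNrip1-/- replicate 1 (8 higher) and without WT control replicate 3 (2 lower). In the other lists, TPM called 2 genes (Ddit4 and Prkag3), and leaving out each library called 0 to 1 (Cd36, without WT control replicate 2). The cause of these changes was not tested. The replicate numbers shared by the groups belong to different mice and give only 2 pairs; the differences between replicates 1 and 2 correlated over 12148 genes with r = 0.089 between the groups. The block called none of the 7 genes tested. Absolute depth is unknown, and Nr4a2 and Fosb rest on too few fragments for a change to be resolved.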
